A study of Mus musculus with 6 samples.

Results

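The ERK pathway carries signals from growth factor receptors through RAS, RAF and MEK to the kinases ERK1 and ERK2, and it is restrained by genes that its own activity can induce. Dual-specificity phosphatases (DUSPs) remove phosphate from ERK itself, in the nucleus for Dusp1, Dusp4 and Dusp5 and in the cytoplasm for Dusp6 and Dusp7. Sprouty and SPRED proteins act at the membrane and limit the activation of RAS and RAF, the SPREDs together with neurofibromin. The 10 genes described here are Dusp1, Dusp4, Dusp5, Dusp6, Dusp7, Spry1, Spry2, Spry4, Spred1 and Spred2, chosen by symbol from the 54752 genes of the count table.

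RNA was sequenced after rRNA removal from NIH/3T3 cells, an immortalised line of mouse embryonic fibroblasts, in 3 groups of 2 libraries. The first group received vehicle. The second received 1 ng/ml TGF-β1 together with DMSO, and the third 1 ng/ml TGF-β1 together with 5 μM BI6727, an inhibitor of the mitotic kinase PLK1 also called volasertib, each for 72 h. The labels give the vehicle as PBS, so an effect of TGF-β1 and one of DMSO cannot be told apart in any comparison with vehicle. No group received BI6727 without TGF-β1. Whether the 2 libraries of a group came from separate cultures was not stated in the labels, and p-values measure only the spread between these libraries.

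The libraries held from 18362378 to 24452153 counts. All 9 fibroblast markers examined reached 1 normalized CPM in every library, with a summed level of 7975 to 10546. The summed levels of 6 epithelial, 4 endothelial and 5 leukocyte markers were at most 1.28, 3.77 and 4.69 normalized CPM, and Krt18, Krt5, Kdr, Adgre1 and Cd3e were at 0 throughout. The TGF-β1 targets Acta2, Ccn2 and Smad7 were called higher in the DMSO group than in vehicle, with log2 fold changes of 2.30, 3.65 and 1.23. The targets Tagln and Tgfbi fell below the filter given in the next paragraph and were tested with the less strict filterByExpr filter of edgeR. Tagln had a log2 fold change of 1.71 and was not called. Tgfbi went the other way, at -1.09 (adjusted p = 0.0281 by edgeR), and was not called. With TGF-β1 and BI6727 it was called lower than in vehicle, at -2.28 (adjusted p = 0.00133 by edgeR). The libraries with TGF-β1 and DMSO stood apart from each other. Their log2 difference had an SD over genes of 0.377, against 0.163 between the vehicle libraries and 0.147 between those with BI6727.

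Normalized CPM are counts relative to library size, scaled by edgeR's TMM method to the genes that passed the filter of 10 CPM in more than 3 libraries. This filter kept 9518 genes and 9 of the 10 described here, and Spry1 fell below it. Comparisons used the quasi-likelihood test of edgeR, p-values were adjusted over all 9518 genes by the Benjamini-Hochberg method, and a gene was called at an adjusted p below 0.01 and a fold change above 2. Fold changes are log2 values with the SE and the 95% interval.

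With TGF-β1 and DMSO, Dusp4 and Dusp5 rose more than 4-fold over vehicle. Dusp6 and Dusp7 rose by less than 2-fold at the weaker threshold of an adjusted p below 0.05. Dusp1, the Sprouty genes tested and the SPRED genes passed neither threshold. In all, 2 of the 9 genes tested were called, both higher, where 5.1% of all genes tested were called, 2.56% higher and 2.53% lower. In bulk RNA, fewer cells that express a gene and less RNA per cell cannot be told apart.

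Dusp4, a nuclear phosphatase of ERK and JNK on mm10 chromosome 8 (plus strand, 34807297 to 34819894), stood at 56.2 and 72.3 normalized CPM with vehicle, at 300.4 and 249.5 with TGF-β1 and DMSO, and at 330.0 and 332.4 with TGF-β1 and BI6727. All 4 libraries with TGF-β1 lay above both vehicle libraries, and the BI6727 libraries lay above the DMSO libraries. The mean was 64.3 ± 11.4 normalized CPM with vehicle and 275 ± 36.0 with TGF-β1 and DMSO (SD, n = 2 each). This 4.28-fold ratio corresponded to a log2 fold change of 2.10 (SE 0.151, 95% interval 1.74 to 2.45, adjusted p = 0.000166 by edgeR).

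Dusp5, a nuclear phosphatase selective for ERK on chromosome 19 (plus strand, 53529109 to 53542431), stood at 24.4 and 21.5 normalized CPM with vehicle, at 98.3 and 114.4 with TGF-β1 and DMSO, and at 97.5 and 102.3 with TGF-β1 and BI6727. Both groups with TGF-β1 lay clear of vehicle and overlapped each other. The mean went from 22.9 ± 2.07 to 106 ± 11.4 normalized CPM (SD, n = 2 each), a log2 fold change of 2.21 (SE 0.125, 95% interval 1.92 to 2.51, adjusted p = 7.61e-05 by edgeR). Of the 50-base windows of Dusp5 transcripts, 20.5% were also found in AC137853.2, a minus-strand gene of the later Gencode M21 annotation (53528609 to 53529655) that overlaps 22.1% of the Dusp5 exons and is not a row of the count table. Since the strand setting of the counting was not stated, reads of the pair cannot be told apart. Without either DMSO library, the log2 fold change was 1.95 and 2.23 for Dusp4 and 2.32 and 2.11 for Dusp5, and both genes were still called.

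The sequence upstream of Dusp5 is shown beside that of Dusp1, the nuclear phosphatase of the group that was not called, because the pair differ in the motifs found. Both run 5′ to 3′ on the gene's own strand and end at the base before the first exon of the annotation, as RefSeq promoter sequences of GRCm38.p6, the mm10 assembly. Capitals mark motif matches.
Dusp5, chr19:53528895-53529108, plus strand: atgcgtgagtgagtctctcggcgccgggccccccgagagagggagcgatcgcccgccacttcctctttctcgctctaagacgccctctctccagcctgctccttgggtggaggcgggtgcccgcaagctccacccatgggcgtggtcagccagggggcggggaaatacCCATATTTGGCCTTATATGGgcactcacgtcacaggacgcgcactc
Dusp1, chr17:26508520-26508722, minus strand: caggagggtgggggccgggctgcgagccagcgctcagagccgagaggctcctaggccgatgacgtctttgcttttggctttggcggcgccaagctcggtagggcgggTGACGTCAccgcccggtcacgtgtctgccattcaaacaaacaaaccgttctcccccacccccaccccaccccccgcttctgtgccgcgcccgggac
The capitals in Dusp5 are 2 adjacent CArG boxes, the motif of serum response factor, at bases 82 to 73 and 72 to 63 before the RefSeq start. The capitals in Dusp1 are 1 cyclic AMP response element, TGACGTCA, at bases 143 to 136 before it. Promoters were found for 8 of the 10 genes, all but Dusp4 and Spry4, and were searched on both strands over the 250 bases before the start. A CArG box was present in 1.47% of the 32851 mouse promoters searched and TGACGTCA in 1.55%. The other motifs searched were TGANTCA of AP-1 (6.75% of promoters), CCGGAAGT of ETS factors (2.88%) and the SMAD palindrome GTCTAGAC (0.167%). The promoters of Dusp6, Dusp7, Spry1, Spry2, Spred1 and Spred2 held no match to any of the 5 motifs in this window, and those of Dusp5 and Dusp1 held no match besides those in capitals. A match is a sequence description and was not tested as a binding site. The motifs were chosen after the sequences were read, so the shares of promoters do not measure how unusual these matches are.

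**Figure D1:**
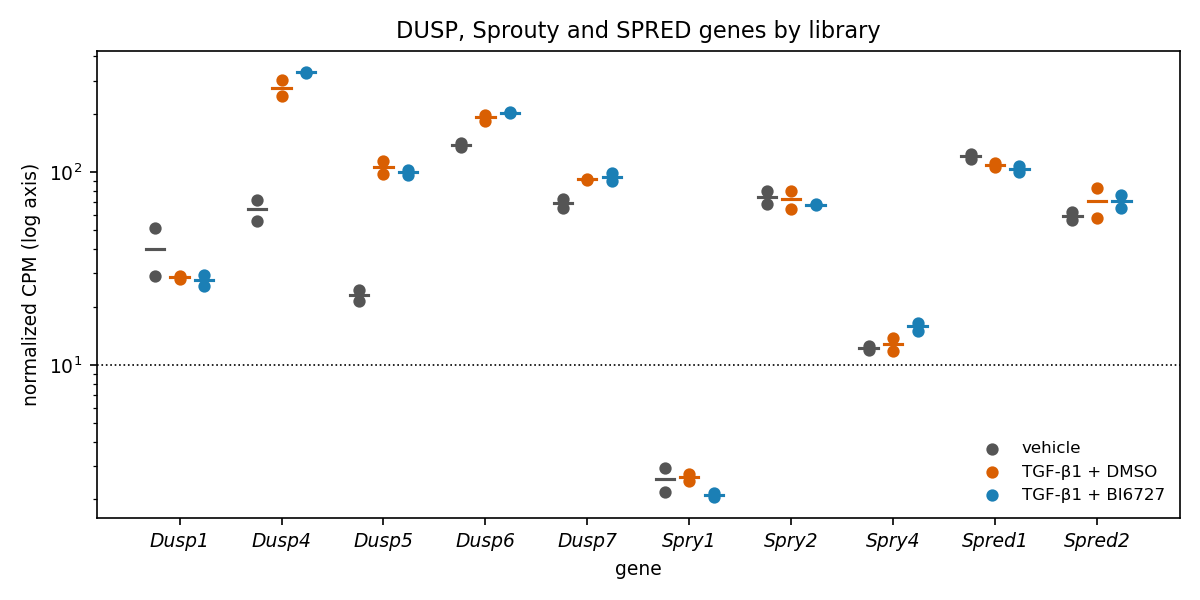
Normalized CPM (log axis) of the 10 genes in each library, with a point for each library, a bar at the group mean and a dotted line at the level of the 10 CPM filter. Dusp4 and Dusp5 with TGF-β1 lie clear above vehicle in both the DMSO and the BI6727 group, while Spry1 lies below the line in all 6 libraries.

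Dusp6 and Dusp7, the cytoplasmic phosphatases of the set described here, rose by less than Dusp4 and Dusp5 with TGF-β1 and DMSO. The contrast does not hold for nuclear and cytoplasmic phosphatases in general. Dusp9, a cytoplasmic ERK phosphatase outside this set, had a log2 fold change over vehicle of 1.91 and was called. The nuclear Dusp1 had a log2 fold change of -0.49 and was not called. Dusp6, the ERK phosphatase often used as a readout of ERK activity, stood at 142.0 and 136.3 normalized CPM with vehicle and at 199.8 and 185.9 with TGF-β1 and DMSO. The groups did not overlap, and the log2 fold change was 0.47 (SE 0.0908, 95% interval 0.26 to 0.68, adjusted p = 0.0109 by edgeR). Dusp7, its close relative, stood at 65.3 and 73.1 with vehicle and at 91.2 and 92.8 with TGF-β1 and DMSO, without overlap. Its log2 fold change was 0.41 (SE 0.105, 95% interval 0.16 to 0.66, adjusted p = 0.0304 by edgeR).

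At an adjusted p below 0.05 with no minimum fold, 4 of the 9 genes were thus higher and 0 lower, where 23% of all genes tested passed, 11% higher and 12% lower. The call for Dusp7 at this weaker threshold was lost when the BI6727 libraries were left out of the fit (adjusted p = 0.075 by edgeR), and Dusp6 stayed past it at 0.0444. In that fit 13.1% of all genes tested passed. Neither gene passed without vehicle replicate 1 or without vehicle replicate 2, fits that leave 1 library in the vehicle group. Their log2 fold changes were 0.49 for Dusp6 and 0.33 for Dusp7 without replicate 1, and 0.44 and 0.50 without replicate 2. Without BI6727 replicate 1 or 2, only Dusp6 of the pair passed, and the log2 fold changes were 0.47 and 0.46 for Dusp6 and 0.41 in both fits for Dusp7.

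Dusp1, an early-response phosphatase that also acts on the stress-activated MAP kinases, stood at 51.3 and 29.0 normalized CPM with vehicle, at 28.0 and 29.1 with TGF-β1 and DMSO, and at 29.5 and 25.7 with TGF-β1 and BI6727. Vehicle replicate 1 stood alone, and the other 5 libraries lay together. The log2 fold change of TGF-β1 and DMSO over vehicle was -0.49 (SE 0.249, 95% interval -1.07 to 0.10, adjusted p = 0.193 by edgeR). It was -0.03 without vehicle replicate 1 and -0.84 without vehicle replicate 2, with adjusted p = 0.938 and 0.0446.

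Other early-response genes of growth factor signalling also differed between the vehicle libraries. Of 7 examined after the values of Dusp1 were seen, 6 were higher in vehicle replicate 1, as were 49.9% of all genes tested. These 7 are part of the list of ERK-induced genes given below, so the count describes a selected set. Of the other genes of that list, Myc and Phlda1 were also higher in replicate 1. Fosl1, Ccnd1, Etv4, Etv5, Epha2, Plaur and Hmga2 were higher in replicate 2. The log2 difference of replicate 1 over replicate 2 was 0.82 for Dusp1, 1.33 for Fos, 0.94 for Fosb, 0.59 for Egr1, 0.49 for Ier2, 0.40 for Egr2 and 0.29 for Ier3, and it was -0.16 for Egr3. A larger difference in either direction was found for 26.5% of all genes tested in the case of Egr3, for 6.9% in the case of Ier3, and for at most 2.11% in the case of the others. These shares were not matched for level, and low counts vary more between libraries, so they do not measure how unusual the differences are. Fos and Fosb were below the filter of the genes tested. Fosb had 138 and 82 counts in the vehicle libraries and Egr2 had 87 and 75. The part of these genes in the result for Dusp1 was not tested.

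Neither of the Sprouty genes tested passed a threshold with TGF-β1 and DMSO. Spry2, the most abundant of them per length, stood at 68.7 and 80.0 normalized CPM with vehicle, at 64.7 and 80.4 with TGF-β1 and DMSO, and at 67.4 and 68.4 with TGF-β1 and BI6727. The groups overlapped, and the log2 fold change of TGF-β1 and DMSO over vehicle was -0.04 (95% interval -0.35 to 0.28, adjusted p = 0.866 by edgeR). Spry4 stood at 11.9 and 12.6 with vehicle, 11.8 and 13.8 with TGF-β1 and DMSO, and 15.1 and 16.6 with TGF-β1 and BI6727. Its vehicle libraries lay within the range of the DMSO libraries, with a log2 fold change of 0.07 (95% interval -0.29 to 0.42, adjusted p = 0.770 by edgeR).

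Spry1 was barely detected. It had 56 and 48 counts with vehicle, 56 and 52 with TGF-β1 and DMSO, and 39 and 50 with TGF-β1 and BI6727, which is 2.07 to 2.91 normalized CPM. With edgeR's less strict filterByExpr filter its log2 fold change was 0.05 between TGF-β1 with DMSO and vehicle (95% interval -0.64 to 0.73, adjusted p = 0.930 by edgeR), and at this depth the interval holds changes in both directions. Its exons overlap those of Gm42922 on the opposite strand over 24.4% of their length.

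The SPRED genes also passed neither threshold. Spred1 ranged from 100 to 124 normalized CPM, lower in both DMSO libraries (112 and 106) than in both vehicle libraries (118 and 124), with a log2 fold change of -0.15 (95% interval -0.37 to 0.07, adjusted p = 0.276 by edgeR). Spred2 stood at 62.6 and 56.5 with vehicle and at 83.4 and 58.2 with TGF-β1 and DMSO, and its log2 fold change was 0.25 (95% interval -0.17 to 0.67, adjusted p = 0.342 by edgeR). The difference in Spred2 rested on DMSO replicate 1. The log2 fold change was -0.04 without that library, and 0.50 without DMSO replicate 2, which is under 2-fold.

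Over the 9 genes the median log2 fold change of TGF-β1 and DMSO over vehicle was 0.249, against -0.0045 over all genes tested. The 2 groups did not overlap for 5 of the 9, 4 higher and 1 lower, where 62.9% of all genes tested did not overlap, 29.8% higher and 33.1% lower.

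**Figure D2:**
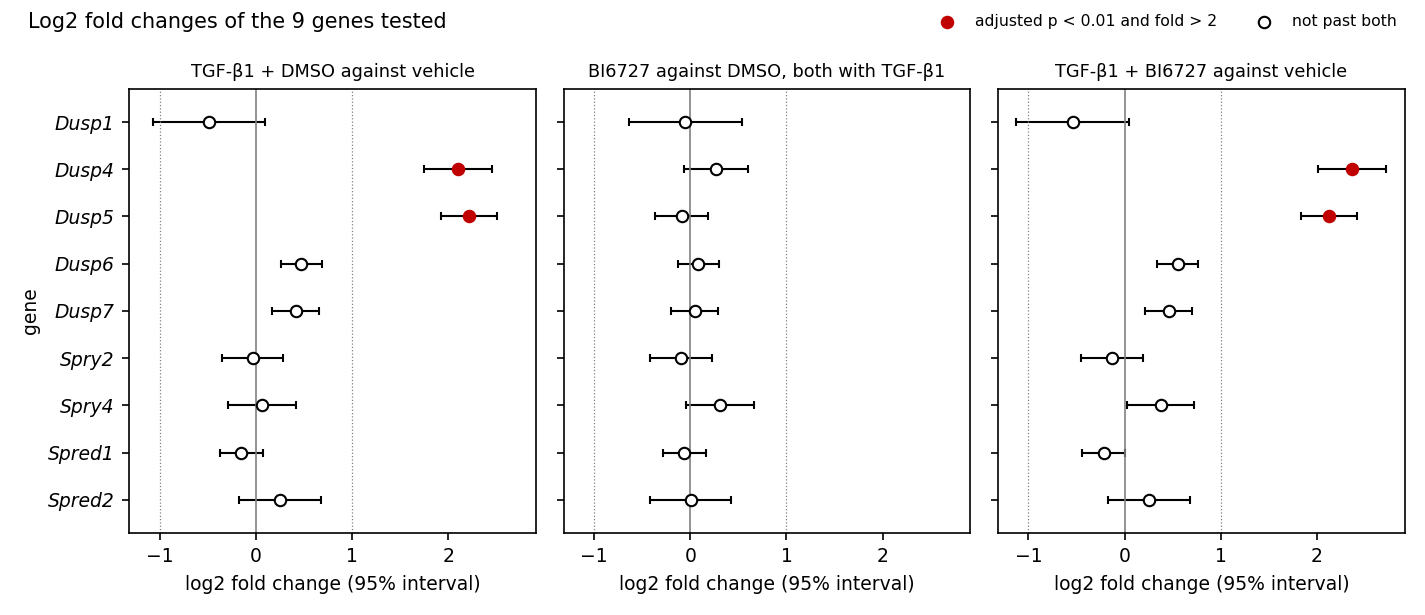
Log2 fold changes of the 9 genes tested in the 3 comparisons, with 95% intervals from the edgeR fit, red points for genes past an adjusted p of 0.01 and a fold of 2, and dotted lines at a fold of 2 in either direction. Dusp4 and Dusp5 are past both limits in the comparisons with vehicle, and every interval in the comparison of BI6727 with DMSO lies between the dotted lines.

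BI6727 was compared with DMSO in the presence of TGF-β1 to ask which of these levels changed under the PLK1 inhibitor. None of the 9 genes was called by edgeR, where 0% of all genes tested were called. None of them had an unadjusted p below 0.05, where 6.68% of all genes did, and DESeq2 called 0 of the 9 as well, where it called 0.116% of all genes tested. The adjusted p-values by edgeR ranged from 0.747 upwards.

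The 95% intervals rest on a spread shared by the 3 groups, and the DMSO libraries differed more from each other than those of the other groups. For this comparison they may be too narrow, and they are not bounds on the differences. The intervals ran from -0.64 at the lowest, for Dusp1, to 0.66 at the highest, for Spry4, so that no interval reached a 2-fold difference. For Dusp5 the log2 fold change was -0.09 (95% interval -0.36 to 0.19, adjusted p = 0.897), for Dusp6 0.08 (-0.13 to 0.30, 0.881) and for Dusp7 0.05 (-0.20 to 0.29, 0.936). Dusp1, Spry2, Spred1 and Spred2 had log2 fold changes of -0.05, -0.10, -0.06 and 0.00. The median over the 9 was 0.003, against -0.0028 over all genes tested.

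Dusp4, Dusp6 and Spry4 had both BI6727 libraries above both DMSO libraries. This is 3 of 9 genes, where 34.1% of all genes tested did not overlap and 17% were higher without overlap. For Dusp4 the means were 331 ± 1.66 normalized CPM with BI6727 and 275 ± 36.0 with DMSO (SD, n = 2 each), a log2 fold change of 0.27 (SE 0.143, 95% interval -0.07 to 0.60, adjusted p = 0.760 by edgeR). Without DMSO replicate 1 it was 0.41 with an adjusted p of 0.00469, under 2-fold, and without DMSO replicate 2 it was 0.13 (adjusted p = 0.476). In the fit without DMSO replicate 1, 31.7% of all genes tested had an adjusted p below 0.05. For Spry4 the log2 fold change was 0.31 (SE 0.150, 95% interval -0.04 to 0.66, adjusted p = 0.747 by edgeR).

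Against vehicle, the cells with TGF-β1 and BI6727 showed the same 2 genes called, Dusp4 and Dusp5, both higher, where 5.31% of all genes tested were called, 2.34% higher and 2.96% lower. This comparison shares the vehicle libraries with the first and is not independent of it. The log2 fold change of Dusp4 was 2.36 (95% interval 2.01 to 2.72, adjusted p = 0.000116 by edgeR), a 5.15-fold ratio of means, and that of Dusp5 was 2.12 (95% interval 1.83 to 2.42, adjusted p = 8.48e-05), a 4.36-fold ratio.

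Dusp6 and Dusp7 again rose by less than 2-fold. Dusp6 stood at 205.2 and 203.6 normalized CPM with BI6727, with a log2 fold change over vehicle of 0.55 (adjusted p = 0.00515 by edgeR), and Dusp7 stood at 99.7 and 90.4, with 0.46 (adjusted p = 0.0195). At an adjusted p below 0.05, 4 of the 9 genes were higher and 0 lower, where 24.5% of all genes tested passed, 11.3% higher and 13.2% lower. Neither Dusp6 nor Dusp7 passed when any 1 of the vehicle or BI6727 libraries was left out, fits that leave 1 library in a group. With any 1 of the 6 libraries left out, the log2 fold change ranged from 0.53 to 0.58 for Dusp6 and from 0.38 to 0.54 for Dusp7.

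The remaining genes differed by less than 2-fold, and their calls at the weaker threshold varied with the libraries in the fit. With all 6 libraries, the log2 fold changes were -0.54 for Dusp1 (adjusted p = 0.160), 0.37 for Spry4 (0.113), -0.22 for Spred1 (0.143) and 0.25 for Spred2 (0.351). With the vehicle and BI6727 libraries alone, edgeR gave adjusted p-values of 0.0121, 0.0346, 0.0144 and 0.0212 for them, so that 8 of 9 genes passed 0.05, 6 higher and 2 lower. In that fit 53.9% of all genes tested passed. The same number of the 9 passed without either 1 of the DMSO libraries, where 54% and 54.1% of all genes did. Dusp1 also passed without vehicle replicate 2, at -0.89 (adjusted p = 0.0367), and was at -0.07 without vehicle replicate 1 (adjusted p = 0.839). Spry2 had a log2 fold change of -0.13 with all 6 libraries (adjusted p = 0.523). BI6727 and vehicle did not overlap for 8 of the 9 genes, 6 higher and 2 lower, where 76.8% of all genes tested did not overlap, and the median log2 fold change was 0.374, against 0.0029 over all genes.

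The changes altered which of the 10 genes was most abundant. Per kilobase of exon, which allows levels of different genes to be compared, Dusp6 led with vehicle at 44.4 normalized CPM per kb, followed by Spry2 at 35.6, Dusp4 at 23.5 and Dusp7 at 20.6. Below them came Spred1 at 17.8, Dusp1 at 14.9, Spred2 at 12.9, Dusp5 at 9.28, Spry4 at 2.67 and Spry1 at 0.876. The libraries of Dusp4 and Dusp7 overlapped, as did those of Spred1 and Dusp1 and those of Dusp1 and Spred2, and other neighbours were separate.

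With TGF-β1 and DMSO, Dusp4 led at 100 normalized CPM per kb, ahead of Dusp6 at 61.6, Dusp5 at 43.0, Spry2 at 34.8 and Dusp7 at 27.4. Spred1 at 16.1 and Spred2 at 15.3 overlapped, and Dusp1 at 10.6, Spry4 at 2.79 and Spry1 at 0.896 closed the order. The order with TGF-β1 and BI6727 was the same, from Dusp4 at 121 and Dusp6 at 65.3 down to Spry1 at 0.729 normalized CPM per kb. Dusp5 thus stood in the eighth place with vehicle and in the third place in both groups with TGF-β1.

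Summed by family, the nuclear phosphatases Dusp1, Dusp4 and Dusp5 stood at 47.6 ± 2.54 normalized CPM per kb with vehicle, 154 ± 8.21 with TGF-β1 and DMSO, and 172 ± 1.00 with TGF-β1 and BI6727 (SD, n = 2 each). The cytoplasmic phosphatases Dusp6 and Dusp7 stood at 65.0 ± 0.362, 89.0 ± 2.81 and 93.6 ± 2.32. The Sprouty genes summed to 39.2 ± 3.75, 38.5 ± 5.55 and 36.7 ± 0.553, and the SPRED genes to 30.7 ± 0.296, 31.4 ± 4.47 and 30.7 ± 2.63. Both phosphatase sums were thus higher with TGF-β1 than with vehicle without overlap, and the summed levels of the Sprouty and SPRED genes overlapped between groups. Single genes without overlap were 62.9% of all tested for DMSO and 76.8% for BI6727 against vehicle. The phosphatase sums restate the rises of their genes and are no separate support. With TGF-β1 and DMSO, Dusp4 and Dusp5 held 143 of the nuclear sum of 154, while the mean of Dusp1 was lower than with vehicle. Dusp4 and Dusp5 together made up 17.9% ± 1.69 of the sum of all 10 with vehicle, 45.8% ± 1.26 with TGF-β1 and DMSO, and 48.5% ± 0.324 with TGF-β1 and BI6727. This pair was grouped because both genes were called.

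**Figure D3:**
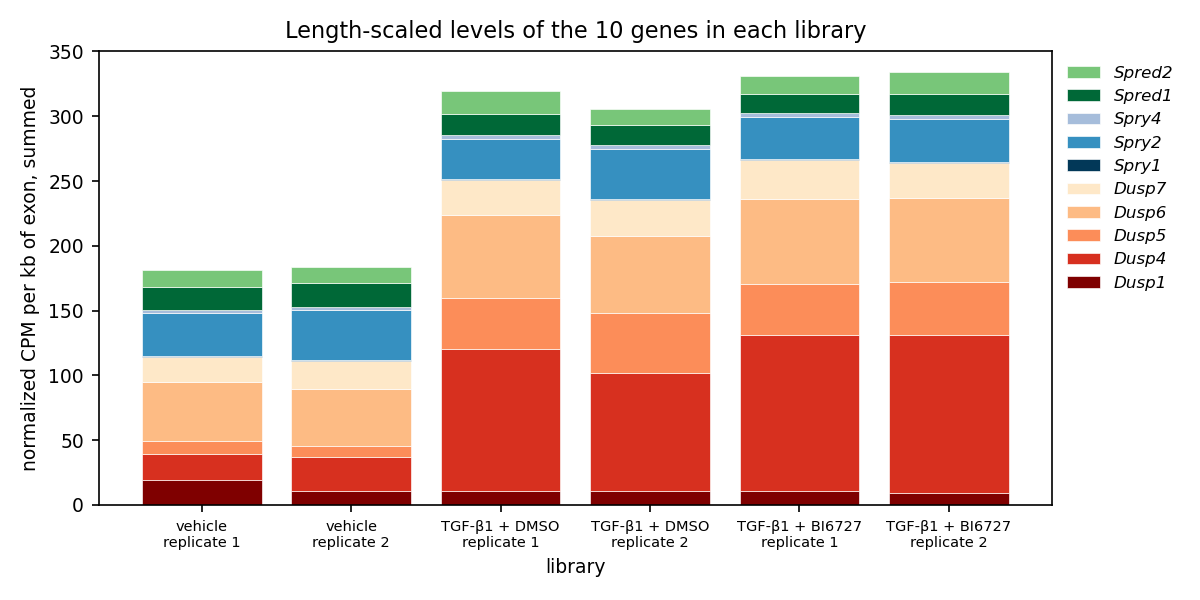
Stacked normalized CPM per kb of exon of the 10 genes in each of the 6 libraries, with reds and oranges for phosphatases, blues for Sprouty genes and greens for SPRED genes. The totals average 183 with vehicle, 313 with TGF-β1 and DMSO and 333 with TGF-β1 and BI6727, and Dusp4 is the segment that widens most.

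Ratios within a library do not depend on the scaling between libraries. Those of the called genes Dusp4 and Dusp5 to Dusp6 restate their rise in the same libraries and are no separate support. The ratio of Dusp4 to Dusp6 per kb was 0.453 and 0.606 with vehicle, 1.72 and 1.53 with TGF-β1 and DMSO, and 1.84 and 1.87 with TGF-β1 and BI6727. The ratio of Dusp5 to Dusp6 was 0.218 and 0.200, then 0.623 and 0.780, then 0.602 and 0.636. The ratio of the cytoplasmic pair Dusp6 to Dusp7 ran from 2.00 to 2.41 over all 6 libraries, and the groups overlapped.

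The genes whose profiles over the 6 libraries lay closest to those of the 2 called genes were found by Euclidean distance between log2 profiles, each relative to its vehicle mean. For Dusp4 they were Alcam, Havcr2 and Gpr149, at distances of 0.290, 0.425 and 0.456. For Dusp5 they were Hmcn2, Tuft1 and Sphk1, at 0.227, 0.234 and 0.277. The Dusp4 distances were all larger than those of Dusp5.

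Other inhibitors of receptor and ERK signalling were examined as a list of 16, of which 15 were found by symbol and 12 were tested. With TGF-β1 and DMSO, 1 was called higher and 1 lower, where 2.56% and 2.53% of all genes tested were. Dusp9, a cytoplasmic ERK phosphatase related to Dusp6 and Dusp7, stood at 11.8 and 16.0 normalized CPM with vehicle, 53.8 and 50.6 with TGF-β1 and DMSO, and 49.5 and 55.2 with TGF-β1 and BI6727. It rose by a log2 fold change of 1.91 (95% interval 1.52 to 2.29, adjusted p = 0.000393 by edgeR), and per kb it went from 0.096 and 0.135 of the Dusp6 level with vehicle to 0.310 and 0.314.

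Socs3, an inhibitor of cytokine receptor signalling, fell from 81.7 and 66.8 normalized CPM to 31.9 and 26.7, a log2 fold change of -1.34 (adjusted p = 0.00106 by edgeR). With TGF-β1 and BI6727 the log2 fold changes over vehicle were 1.91 for Dusp9 and -1.38 for Socs3. Spred3, the third SPRED gene, rose with a log2 fold change of 0.57 at the weaker threshold (adjusted p = 0.0331), as did the receptor inhibitors Lrig3 (0.78, 0.0123) and Lrig1 (0.41, 0.0496). With Dusp9 these were 4 of the 12, where 11% of all genes tested were higher at that threshold. The phosphatases Dusp10 (0.14) and Dusp16 (0.30), which act mainly on stress-activated kinases, the RAS GTPase-activating genes Nf1 (-0.17), Rasa1 (0.20) and Rasa2 (0.06), the EGF receptor inhibitor Errfi1 (-0.09) and the ubiquitin ligase Cbl (0.24) did not pass.

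Dusp2, Dusp8 and Il17rd were below the filter. Dusp8 had 47 and 46 counts with vehicle, 81 and 90 with TGF-β1 and DMSO, and 42 and 48 with TGF-β1 and BI6727. With filterByExpr its log2 fold change was 0.87 over vehicle (adjusted p = 0.0546) and -0.93 for BI6727 against DMSO (adjusted p = 0.557 by edgeR). Dusp2 had 10 and 12 counts with vehicle, 11 and 34 with TGF-β1 and DMSO, and 39 and 38 with TGF-β1 and BI6727, with an adjusted p of 0.0566 for BI6727 against vehicle.

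Among 20 genes of the ERK cascade, 19 were tested and 1 was called higher with TGF-β1 and DMSO and 0 lower, a share close to the 5.1% of all genes called. DESeq2 called 1 as well. Map2k1, which encodes the ERK kinase MEK1, went from 124 and 123 normalized CPM with vehicle to 249 and 256, a log2 fold change of 1.03 (adjusted p = 0.000344 by edgeR). The median of the cascade genes was -0.099, against 0.221 for the other inhibitors and -0.0045 for all genes tested.

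Of 16 genes that ERK signalling is known to induce, 14 passed the filter of 10 CPM in more than 3 libraries. This filter can admit a gene high only in the 4 libraries with TGF-β1, as it did Egr2, but none high only with vehicle, as Fos was, so the list is given with filterByExpr, which admitted all 16. With it 2 were called higher, Egr2 and Plaur, and 1 lower, Fos, where 2.75% of all genes tested were called higher and 3.23% lower, and the median was 0.399, against -0.0110 over all genes. The transcription factor Egr2 went from 4.52 and 3.41 normalized CPM to 26.5 and 21.0, a log2 fold change of 2.59 with filterByExpr (adjusted p = 0.000114 by edgeR), and was at 13.7 and 16.4 with TGF-β1 and BI6727. Plaur, the urokinase receptor, rose by 1.94 with the stricter filter (adjusted p = 0.000134). Fos went the other way, from 29.0 and 11.5 to 2.03 and 3.27 normalized CPM, and its log2 fold change was -2.92 with filterByExpr (edgeR adjusted p = 0.00245). Between BI6727 and DMSO, edgeR called 0 genes in each of the 3 lists, and DESeq2 called 0 as well, where it called 0.116% of all genes tested. An unadjusted p below 0.05, which 6.68% of all genes tested had, was found for 0 of 12 other inhibitors, for 1 of 19 cascade genes, Grb2 (log2 fold change 0.21), and for 3 of 14 induced genes, Egr2 (-0.65), Etv4 (-0.34) and Ccnd1 (0.37). These are genes past the filter of 10 CPM. Of the inhibitors below it, Dusp8 had such a p with filterByExpr (-0.93, unadjusted p = 0.00885 by edgeR), and Dusp2 and Il17rd did not.

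**Figure D4:**
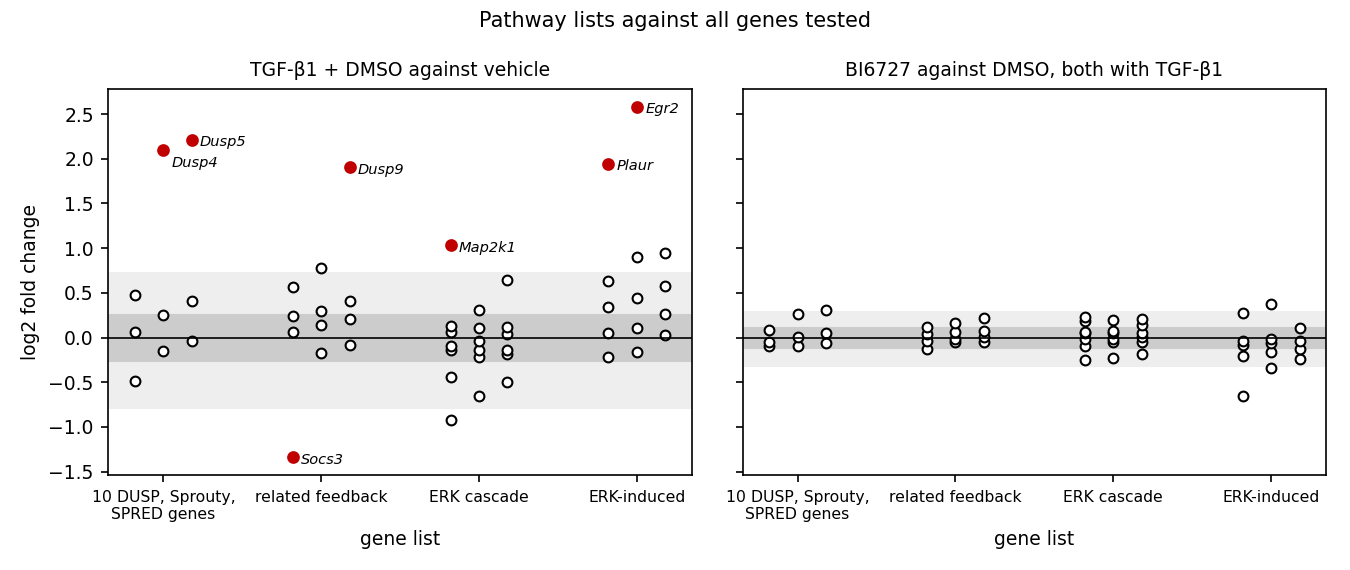
Log2 fold changes of the genes tested in each of 4 lists for TGF-β1 with DMSO against vehicle and for BI6727 against DMSO, with red points for called genes and grey bands for the middle 90% (light) and middle 50% (dark) of all genes tested. In the comparison with vehicle Dusp4, Dusp5, Dusp9, Map2k1, Egr2 and Plaur are called above the bands and Socs3 below, Egr2 having passed the filter only through the libraries with TGF-β1, and no point is red for BI6727 against DMSO.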

How the data were processed

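Single-end reads of 6 rRNA-depleted libraries were mapped by the authors to mm10 with Subjunc and counted on Gencode M20 genes with featureCounts, of Subread 1.6.4 per the labels. The authors deposited these counts without normalization. The strand setting was not given in the sources used here. Groups and replicate numbers came from the labels. Symbols were matched by Ensembl identifier for 54723 of 54752 genes.

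Here the counts were analysed in R 4.3.3 with edgeR 4.0.16 (TMM scaling, a single quasi-likelihood fit over the 6 libraries without covariates, leaving 3 residual degrees of freedom), with DESeq2 1.42.0 as an alternative. The SE is the size of the log2 fold change divided by the square root of F. No exact permutation test was run, because the smallest p it allows with 2 libraries a group is 0.333. All 10 genes are named whatever their values, and of the other lists the called genes and all other inhibitors. Genes and lists were chosen with earlier results of these data known, and the motifs after the sequences were read. The fit was checked on simulated counts. A further TGF-β1 target examined is not reported here. Shared windows were taken from Gencode M21 transcripts.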

Additional observations from a re-analysis of the deposited data

How the results depend on the processing

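Dusp4 and Dusp5 were called in both comparisons with vehicle under all 17 alternatives, which were DESeq2, its size factors, 2 other filters, only the groups compared, the replicate block, offsets for each library's trend on length with and without the block, 2 weaker thresholds, each library left out in turn and a crossed block. The 2 weaker thresholds were applied to the main fit and could not lose a call. With any 1 library left out, the log2 fold change of DMSO over vehicle ranged from 1.92 to 2.29 for Dusp4 and from 2.11 to 2.32 for Dusp5. That of BI6727 over vehicle ranged from 2.19 to 2.56 and from 2.03 to 2.21. Between BI6727 and DMSO no member reached a 2-fold difference in these fits. With an adjusted p below 0.05 and no fold minimum, 4 members passed in each comparison with vehicle, where 23% and 24.5% of all genes tested did. With 1 library left out its arm holds 1 library, assumed to vary like the others.

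The replicate numbers are only a shared number: deviations of same-numbered libraries correlated across genes with r = -0.11 for vehicle and DMSO, 0.047 for vehicle and BI6727 and -0.26 for DMSO and BI6727. With the replicate block, edgeR called 2, 0 and 2 members in the 3 comparisons, where 4.76%, 0% and 5.02% of all genes tested were called. An adjusted p below 0.05 without a fold minimum was found for 3 members (Dusp4, Dusp5, Dusp6) with DMSO and 4 with BI6727 against vehicle. In these fits 17.4% and 18.6% of all genes tested passed it. With length offsets and the block together, Dusp1 also passed 0.05 as lower, at 0.0493 with DMSO and 0.0399 with BI6727. There 31% and 33.3% of all genes tested passed. A crossed pairing of the DMSO libraries, added after the data were seen, also called 2, 0 and 2, where 5.16%, 0% and 5.49% of all genes tested were called.

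Signs turned only in comparisons where the member was not called. With 1 library left out, the log2 fold change of TGF-β1 and DMSO over vehicle ranged from -0.19 to 0.11 for Spry2, -0.04 to 0.17 for Spry4 and -0.04 to 0.50 for Spred2. For BI6727 against DMSO it ranged from -0.15 to 0.05 for Dusp1, -0.19 to 0.01 for Dusp5, -0.03 to 0.12 for Dusp7, -0.24 to 0.06 for Spry2 and -0.24 to 0.29 for Spred2, and Spred2 was at -0.01 with DESeq2, -0.01 with its size factors and 0.00 with length offsets. The cause was not tested. Levels ranked per count instead of per length moved 12 of 30 places. With 2 libraries a group, differences smaller than the intervals given were not detectable.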
